A study of Homo sapiens with 6 samples.

Results

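Genes of the TGF-beta and BMP pathway were followed through an shRNA knockdown of the lysine methyltransferase gene SETD7 in HMEC-1, an endothelial line derived from the small vessels of human skin. The 43 genes were taken from a written list of ligands, receptors, SMADs, regulators and ID targets and matched by symbol, and 42 of them had a row among the 18544 genes of the count table. The remaining ligand gene, BMP2, was not analysed here. All cultures grew in MCDB131 medium with 5.5 mM glucose and carried a lentiviral shRNA. In the 3 libraries called Set7KD the shRNA targeted SETD7, and in the 3 called NTC it was non-targeting. Nothing in the labels says whether the libraries of a group came from separate transductions, so a p-value here speaks of variation among these libraries. The labels name 1 targeting construct.

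TGF-beta, activin and BMP ligands bind pairs of type I and type II serine/threonine kinase receptors on the cell surface. TGF-beta and activin receptors mainly phosphorylate SMAD2 and SMAD3, BMP receptors SMAD1, SMAD5 and SMAD9, and both groups of SMADs enter the nucleus with SMAD4. Endothelial cells use both branches, with ACVRL1 and ENG as receptor and co-receptor of their own BMP branch, and the ID genes are direct targets of that branch.

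Depth was even, at 16385878 to 16953331 gene counts per library, so that 1 count corresponded to 0.0585 to 0.0618 CPM (CPM, the gene count scaled to library size with TMM factors). SETD7 was at 180.5, 178.4 and 176.1 CPM in NTC replicates 1 to 3 and at 27.8, 43.8 and 26.7 CPM in Set7KD, with the smallest reduction in replicate 2. Of 12 endothelial markers 10 had a row, among them CDH5, TIE1, TEK and KDR, while PECAM1 and CLDN5 were not analysed here. By edgeR 3 of the 10 were higher (TEK, KDR and ECSCR), 3 lower (CDH5, TIE1 and ROBO4) and 4 not called. Of all tested genes 36.2% were called. ERG, not called at an edgeR adjusted p of 0.13, was lower with the replicate number as a block, at 0.000178. The summed level of the 10 markers was 511.7 to 649.8 CPM in NTC and 421.9 to 465.3 CPM in Set7KD. It rests mostly on CDH5 (mean 206.4 and 118.6 CPM) and TIE1 (143.5 and 87.3 CPM). The fibroblast collagen gene COL1A1 averaged 1555 CPM in NTC already. In bulk RNA, fewer cells of a type and less RNA per cell cannot be told apart.

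All 42 genes passed the filter on low counts. By edgeR's quasi-likelihood test, with p-values adjusted over 18482 genes and called under 0.05, 12 were higher and 7 were lower in Set7KD, and 23 were not called. That is 45.2% of the genes, where 36.2% of all tested genes were called, 17.6% higher and 18.6% lower. The median log2 fold change of the 42 was 0.06 and their median absolute change 0.25, beside -0.01 and 0.21 over all tested genes. Levels of NTC and Set7KD were fully separate for 22 genes, 14 higher and 8 lower, against a background of 47.4% of all genes. With the replicate number as a block, 15 were higher and 12 lower, where 42.8% of all genes were called, 20.7% higher and 22.1% lower. None of the 19 calls was lost with the block, and 8 were added. Leaving out NTC replicate 1, NTC replicate 2, Set7KD replicate 1 or Set7KD replicate 3 gave 2, 4, 3 and 4 lower genes, while the number of higher genes stayed between 10 and 13 with any single library left out. Without both replicate 1 libraries 7 were higher and 1 was lower. The share of all genes called in these smaller fits is not given. The leave-out counts here, and those of other lists below, therefore have no background beside them. The 42 genes moved in both directions, and receptors, SMADs and extracellular regulators each held higher and lower members.

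**Figure D1:**
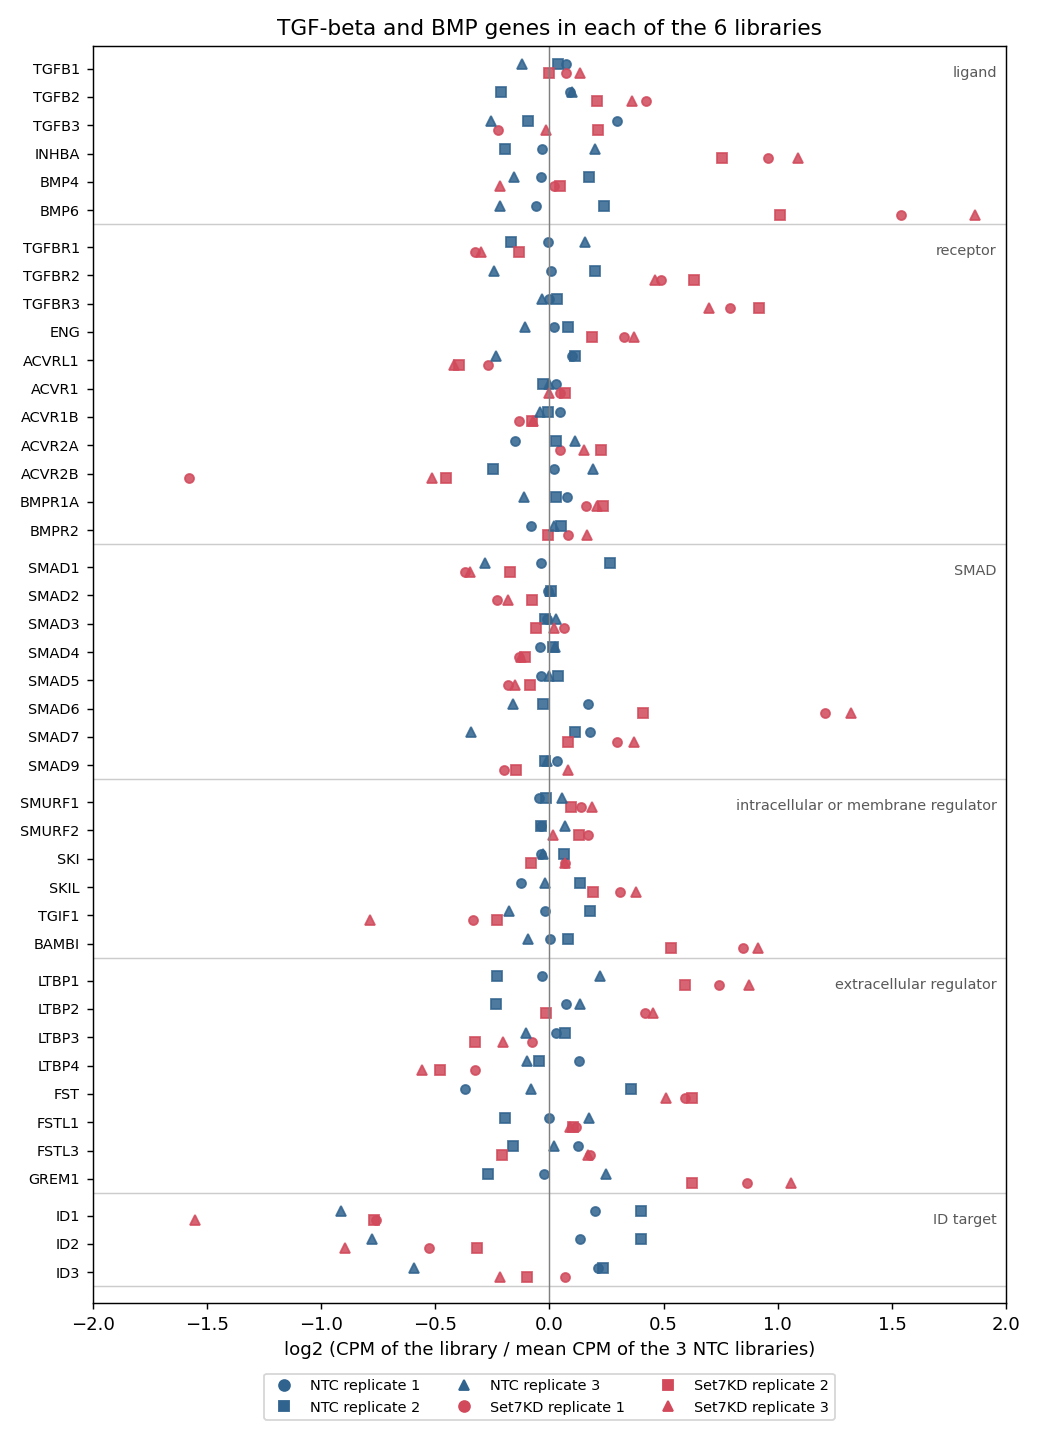
Level of each of the 42 genes in each library, as log2 of its CPM over the mean CPM of the 3 NTC libraries, with genes in rows by role, NTC in blue and Set7KD in red, and a marker shape for each replicate number. BMP6, INHBA, TGFBR3, SMAD6 and BAMBI lie to the right of all NTC points in every Set7KD library, and ID1, ID2 and ID3 are low in NTC replicate 3.

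Among the 6 ligands, 3 rose, 0 fell and 3 did not pass by edgeR, where 36.2% of all genes were called. INHBA, whose product dimerises to activin A, was at 13.9, 12.4 and 16.3 CPM in NTC and 27.6, 24.0 and 30.2 CPM in Set7KD. Every knockdown library lay well above every control library. The log2 fold change was 0.94 ± 0.11 (standard error, n = 3 each), with an edgeR adjusted p of 1.59e-05. BMP6, a BMP that in the liver is made by endothelial cells and controls iron uptake through hepcidin, was at 5.67, 6.98 and 5.09 CPM in NTC and 17.2, 11.9 and 21.5 CPM in Set7KD. The groups were far apart, with replicate 2 the lowest of the knockdown libraries. Its log2 fold change of 1.51 ± 0.23 was the highest of the 42 genes, at an edgeR adjusted p of 0.0013.

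TGFB2, which needs the co-receptor TGFBR3 for high-affinity binding to its receptors, was at 114.2, 92.7 and 114.8 CPM in NTC and 143.9, 123.8 and 137.7 CPM in Set7KD. The groups did not overlap, although the gap between them was narrow. Its log2 fold change was 0.33 ± 0.08 (standard error, edgeR adjusted p 0.00947), and without both replicate 1 libraries the call was lost at 0.062. GENCODE 29 places another transcript on the same strand, TGFB2-OT1, over 27.1% of its exon bases, and reads there cannot be assigned to either gene. TGFB1, the most abundant ligand per length, was at 85.9, 83.9 and 75.3 CPM in NTC and 85.9, 81.6 and 89.6 CPM in Set7KD. BMP4 ran from 27.1 to 34.1 CPM in NTC and from 26.0 to 31.2 CPM in Set7KD, and TGFB3 from 4.15 to 6.08 CPM and from 4.24 to 5.75 CPM. For these 3 ligands the groups overlapped.

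Per length, the ligand order in NTC was TGFB1 at 29.5 CPM per kilobase of merged exon, TGFB2 at 21.2, BMP4 at 14.4, INHBA at 2.15, BMP6 at 2.13 and TGFB3 at 1.79. The last 3 were not separated beyond their spread. Within each library, BMP6 stood at 0.193, 0.205 and 0.188 of the CPM of BMP4 in NTC and at 0.563, 0.382 and 0.828 in Set7KD.

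The 11 receptors and co-receptors split evenly by edgeR, with 3 higher, 3 lower and 5 not called, where 36.2% of all genes were called. All 3 that rose were TGFBR2 or co-receptors. TGFBR2, the type II receptor that binds TGF-beta first, was at 428.9, 489.9 and 361.2 CPM in NTC and 597.9, 661.5 and 587.6 CPM in Set7KD. The lowest knockdown library exceeded the highest control. That is a log2 fold change of 0.53 ± 0.10 (standard error, edgeR adjusted p 0.00448).

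TGFBR3, or betaglycan, was at 35.6, 36.5 and 34.8 CPM in NTC and 61.6, 67.4 and 57.8 CPM in Set7KD. The control libraries were nearly equal and the gap to the knockdown libraries was wide, with a log2 fold change of 0.81 ± 0.07 (standard error) and the lowest edgeR adjusted p of the 42 genes, 6.01e-07. ENG, the endothelial co-receptor endoglin, was at 146.3, 152.8 and 134.1 CPM in NTC and 181.3, 164.2 and 186.8 CPM in Set7KD. The groups were separate and the change was smaller, a log2 fold change of 0.30 ± 0.06 (standard error, edgeR adjusted p 0.00176). Without both replicate 1 libraries the ENG call was lost at 0.0589.

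The 3 receptors that fell were type I receptors of the TGF-beta and BMP branches and a type II activin receptor. ACVRL1, the endothelial type I receptor for circulating BMPs, was at 65.1, 65.7 and 51.7 CPM in NTC and 50.5, 46.2 and 45.6 CPM in Set7KD. NTC replicate 3 came within a short distance of the knockdown libraries without reaching them. The log2 fold change was -0.36 ± 0.09 (standard error, edgeR adjusted p 0.00583), and its adjusted p rose to as much as 0.0725 when both libraries that share a number were left out, which ended the call for numbers 1 and 2.

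TGFBR1, the type I TGF-beta receptor, was at 108.0, 96.5 and 120.7 CPM in NTC and 86.5, 98.8 and 88.0 CPM in Set7KD. The groups overlapped, since Set7KD replicate 2 was above NTC replicate 2. The edgeR fit gave a log2 fold change of -0.25 ± 0.08 (standard error) and an adjusted p of 0.0246, and the call was lost when replicate 1 or 3 of either group was left out, with an adjusted p of up to 0.125. ACVR2B, a type II receptor for activins, had a low level, at 2.75, 2.29 and 3.10 CPM in NTC and 0.908, 1.98 and 1.90 CPM in Set7KD. Set7KD replicate 1 stood apart from the other knockdown libraries. The log2 fold change was -0.77 ± 0.25 (standard error, edgeR adjusted p 0.0275). Without Set7KD replicate 1 it was -0.48 with an adjusted p of 0.144, and the call was also lost without NTC replicate 1 or NTC replicate 3.

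The receptors that did not pass included the BMP type II receptor BMPR2, at 167.5 to 183.4 CPM in NTC and 176.3 to 198.3 CPM in Set7KD. ACVR1, a type I receptor of BMPs, stayed within 46.4 to 49.6 CPM in all 6 libraries. The activin type I receptor ACVR1B was at 51.3 to 54.5 CPM in NTC and 48.1 to 50.2 CPM in Set7KD, with no overlap of the groups but an edgeR adjusted p of 0.239. BMPR1A, a type I BMP receptor, was at 22.1, 21.4 and 19.4 CPM in NTC and 23.4, 24.7 and 24.2 CPM in Set7KD. Its edgeR adjusted p was 0.0718, and with the replicate block it was called higher at 0.0487. ACVR2A, a second type II receptor, was at 5.96 to 7.14 CPM in NTC and 6.84 to 7.73 CPM in Set7KD.

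**Figure D2:**
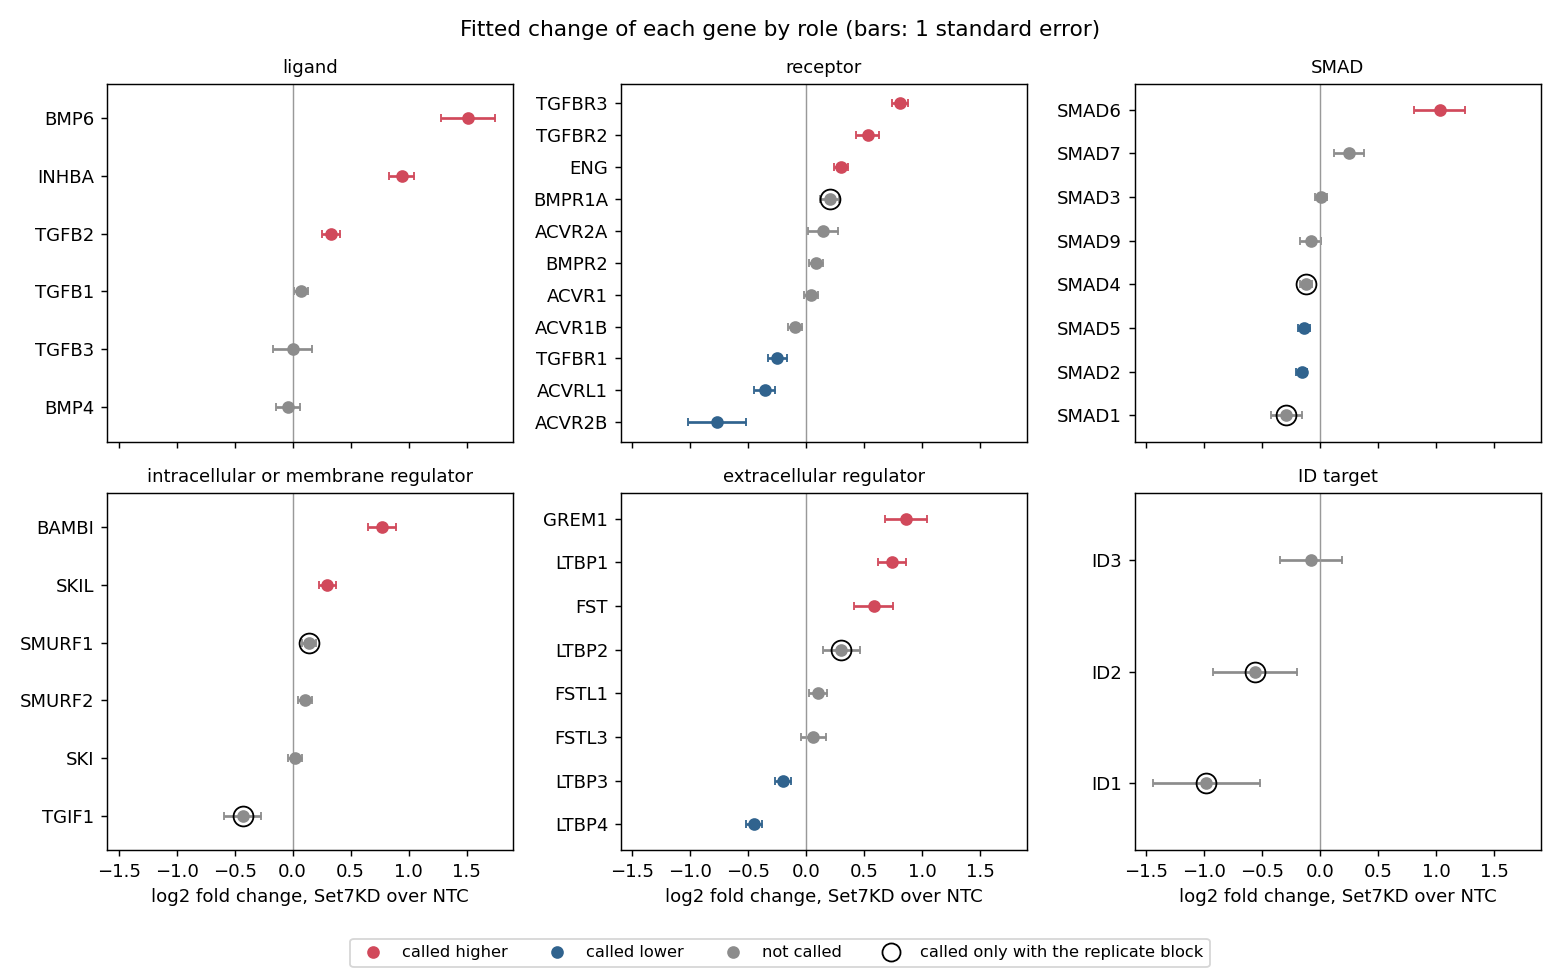
Fitted log2 fold change of each gene, Set7KD over NTC, in a panel for each role, with bars of 1 standard error from edgeR. Red points were called higher, blue points lower and grey points were not called, all without the replicate block. Open rings mark the 8 genes that edgeR, on all 6 libraries, called with the replicate block and not without it.

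In order of level per length in NTC, TGFBR2 was highest at 90.7 CPM per kilobase, followed by ENG at 42.4. TGFBR1 at 16.4, BMPR2 at 15.4, ACVRL1 at 13.8 and ACVR1 at 13.4 each overlapped the next in their ranges, and ACVR1B followed at 9.50. TGFBR3 was at 5.07, BMPR1A at 1.86, ACVR2A at 1.15 and ACVR2B at 0.229. TGFBR2 rose and TGFBR1 fell, the latter with overlapping groups, and ENG rose while ACVRL1 fell. Within a library, the ratio of TGFBR2 to TGFBR1 CPM was 3.97, 5.08 and 2.99 in NTC and 6.92, 6.69 and 6.68 in Set7KD. The ratio of ENG to ACVRL1 was 2.25, 2.33 and 2.60 in NTC and 3.59, 3.55 and 4.10 in Set7KD. Neither ratio overlapped between the groups, whereas that of TGFBR1 to ACVRL1 did, at 1.82 ± 0.456 and 1.93 ± 0.213 (mean ± SD, n = 3).

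These ratios belong to a family of 9 computed from pairs chosen after their values were seen. An exact two-sided permutation test gave 0.1, the smallest p that 3 libraries against 3 allow, for 7 of the 9, and 0.129 after Benjamini-Hochberg adjustment over them. Of these 7, the ratio of ID1 to ID3 was the one that was lower in Set7KD, at 0.716 ± 0.119 in NTC and 0.39 ± 0.0882 in Set7KD (SD, n = 3). The ratio of TGFB2 to TGFB1 overlapped between the groups, at 1.32 ± 0.21 in NTC and 1.58 ± 0.0867 in Set7KD (SD, n = 3). A ratio within a library does not depend on the scaling of that library.

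**Figure D3:**
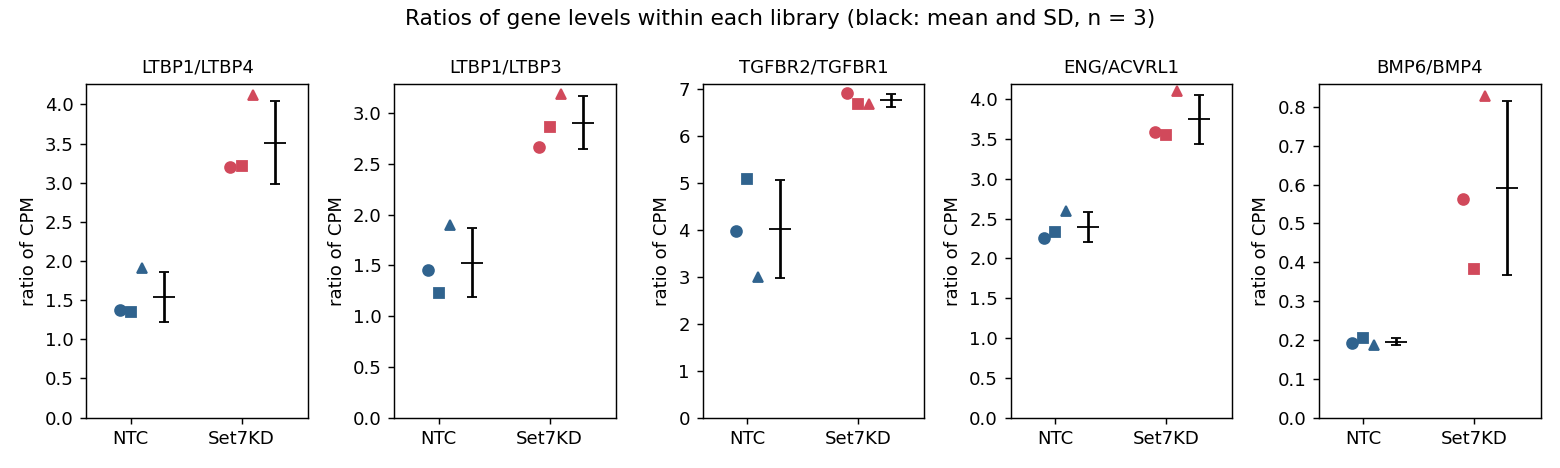
Ratio of the CPM of gene pairs within each library, NTC in blue and Set7KD in red with a marker shape for each replicate number, and black bars for the mean and SD (n = 3). The 5 pairs were picked from the 9 computed, and for each of them every Set7KD library lies above every NTC library. Of those not shown, SMAD6 to SMAD7 was also separate upward and ID1 to ID3 was lower in Set7KD. TGFBR1 to ACVRL1 and TGFB2 to TGFB1 overlapped between the groups.

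Of the 8 SMAD genes, 1 rose and 2 fell by edgeR (37.5% called, beside 36.2% of all genes). The receptor-activated and common SMADs differed little. SMAD6, the inhibitory SMAD of the BMP branch and itself a BMP target, was at 3.45, 3.01 and 2.75 CPM in NTC and 7.08, 4.08 and 7.66 CPM in Set7KD. The groups did not overlap, and Set7KD replicate 2 was the lowest of the knockdown libraries. The level is low, at 59, 50 and 47 counts in NTC. Fitted over all libraries, the log2 fold change was 1.03 ± 0.22 (standard error, edgeR adjusted p 0.00267). SMAD7, the other inhibitory SMAD, was at 14.0, 13.4 and 9.77 CPM in NTC and 15.2, 13.1 and 16 CPM in Set7KD, with overlap and an edgeR adjusted p of 0.151. The SMAD6 to SMAD7 ratio was 0.25 ± 0.0289 in NTC and 0.418 ± 0.0927 in Set7KD (SD, n = 3).

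SMAD6 is also the gene among the 42 whose promoter holds the palindrome GTCTAGAC, a sequence bound by SMAD proteins, in the 250 bases before its RefSeq start. The window is shown because the motif is rare and the gene is the SMAD that rose, and the capitals mark the motif. It lies at chr15:66702213-66702242 on the plus strand of GRCh38.p14, with the motif 12 to 5 bases before the start.
SMAD6 promoter: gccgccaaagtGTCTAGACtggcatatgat
The palindrome, which reads the same on both strands, was found in 48 of 27305 RefSeq promoters of that length (0.2%), and in 1 of the 40 genes matched to a promoter. The motif GGCGCC, the GC-rich core of BMP-responsive SMAD sites and also a palindrome, was found in 13 of the 40, where 16.1% of all promoters hold it, and CAGACA or its reverse complement in 6 of the 40, where 13.6% do. Of the 13 GGCGCC carriers, SKIL, BAMBI and GREM1 rose and SMAD2 fell by edgeR, where 36.2% of all genes were called. The other carriers, SMAD3, FSTL1, SMAD4, BMPR2, BMP4, FSTL3, LTBP2, ACVR1 and ACVR1B, were not called. A match is a description of the letters and not of binding.

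SMAD2 was at 153.5, 154.8 and 154.3 CPM in NTC and 131.5, 146.5 and 136.1 CPM in Set7KD. SMAD5 was at 152.0, 159.9 and 155.5 CPM in NTC and 137.6, 146.7 and 140.2 CPM in Set7KD. For both genes all knockdown libraries were lower, by a small amount. Log2 fold changes were -0.16 ± 0.05 for SMAD2 (edgeR adjusted p 0.031) and -0.14 ± 0.05 for SMAD5 (0.0478), with standard errors. Both calls were lost without any one of NTC replicates 1, 2 and 3 or Set7KD replicates 1 and 3, at adjusted p of up to 0.181 and 0.202. SMAD5 was also not called under the other normalizations tried, and the antisense gene SMAD5-AS1 covers 7.6% of its exon bases.

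SMAD4, the shared partner of the receptor-activated SMADs, was at 142.3, 148.2 and 149.2 CPM in NTC and 133.7, 136.2 and 134.6 CPM in Set7KD. The groups were separate, with a log2 fold change of -0.12 ± 0.05 (standard error), an edgeR adjusted p of 0.0732, and a call with the replicate block at 0.0324. A protein-coding gene on the same strand, AC091551.1, covers 9.1% of the exon bases of SMAD4. SMAD1 was at 34.4, 42.4 and 29 CPM in NTC and 27.3, 31.3 and 27.7 CPM in Set7KD, with overlap. Its edgeR adjusted p was 0.0967, but 0.00725 with the block and 0.00444 without NTC replicate 3. An antisense gene, SMAD1-AS1, covers 16.1% of its exon bases, and the sources used here do not say whether counting used strand. SMAD3, the most abundant SMAD per length at 31.8 CPM per kilobase, was at 227.1 to 234.3 CPM in NTC and 221.0 to 240.4 CPM in Set7KD, and SMAD9 at 19.1 to 19.8 CPM and 16.9 to 20.5 CPM. For these 2 the log2 fold changes were 0.01 and -0.08.

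TGFBR1, SMAD2 and SMAD5, which are 3 of the 7 genes that fell, have in common that their 3′ UTRs in GENCODE 29 hold ATGAATC or TGAATCA. These 7-base words were already known from an earlier look at these data as the words most associated with lower fold changes, so their presence is described and not tested. One site of each gene is shown, with a site in SETD7 and a site in INHBA, a carrier that rose. Sequences are the RNA strand written as DNA, with the word in capitals.
TGFBR1: attttttatTGAATCAaagattgag
SMAD2: agatccataATGAATCcagaacttc
SMAD5: tattttgtgATGAATCtacatttgt
INHBA: tgtgagcctTGAATCAaccaatcta
SETD7: ttgctctgaATGAATCctgagagtt
On GRCh38 the sites lie at chr9:99151594-99151618 (plus strand, TGFBR1), chr18:47836017-47836041 (minus strand, SMAD2), chr5:136177622-136177646 (plus strand, SMAD5), chr7:41689282-41689306 (minus strand, INHBA) and chr4:139510342-139510366 (minus strand, SETD7). In all, 7 of the 42 genes (16.7%) carried a word, beside 18.9% of all tested genes with an annotated 3′ UTR. The carriers were BMPR2, GREM1, INHBA, SMAD2, SMAD5, TGFBR1 and TGIF1, of which 2 rose and 3 fell, while 10 rose and 4 fell among the 35 without a word. The calls of TGFBR1, SMAD2 and SMAD5 were all lost without NTC replicate 1, as was that of the carrier GREM1, and with the block TGIF1 was also called lower. Over all tested genes, 404 of 2436 carriers were higher and 708 lower, and 2232 and 2152 of the 10430 without a word. The words were picked for that association in these same data, so these counts are no independent background. The 3′ UTR annotated for SMAD2 is 32870 bases long, which gives it more room for any word.

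Of 6 regulators inside the cell or in its membrane, 2 rose, 0 fell and 4 were not called by edgeR (33.3% called, beside 36.2% of all genes). BAMBI, a membrane protein that resembles a type I receptor without a kinase and dampens TGF-beta and BMP signals, was at 7.13, 7.53 and 6.67 CPM in NTC and 12.8, 10.3 and 13.4 CPM in Set7KD. Each knockdown library lay above every control, with a log2 fold change of 0.77 ± 0.12 (standard error, edgeR adjusted p 0.000203). SKIL, a nuclear co-repressor of SMADs whose gene is induced by TGF-beta, was at 47.0, 56.2 and 50.6 CPM in NTC and 63.6, 58.6 and 66.6 CPM in Set7KD. The groups were separate by a narrow gap, and the log2 fold change was 0.30 ± 0.07 (edgeR adjusted p 0.00524, or 0.139 without both replicate 1 libraries).

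TGIF1, another nuclear co-repressor, was at 47.8, 54.8 and 42.9 CPM in NTC and 38.5, 41.4 and 28.1 CPM in Set7KD. Every knockdown library was lower than every control, yet the spread was wide and the log2 fold change of -0.43 ± 0.16 (standard error) had an edgeR adjusted p of 0.0739. With the replicate block it was called at 8.47e-05, by DESeq2 at 0.00438, by limma-voom at 0.0195, without NTC replicate 3 at 0.0353 and without Set7KD replicate 3 at 0.0422. SMURF1, a ubiquitin ligase that acts on SMADs and receptors, was at 50.9 to 54.7 CPM in NTC and 56.2 to 59.8 CPM in Set7KD, with an edgeR adjusted p of 0.0824 and 0.0415 with the block. The related ligase SMURF2 was at 91.6 to 98.7 CPM and 95.1 to 105.8 CPM, and the co-repressor SKI at 110.9 to 119.0 CPM and 107.5 to 119.5 CPM, with overlap for both.

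Of the 8 extracellular regulators 3 were higher and 2 lower by edgeR, where 36.2% of all genes were called. Without NTC replicate 1 the calls of FST, GREM1 and LTBP3 were lost, which leaves LTBP1 and LTBP4. The latent TGF-beta binding proteins, which tether latent TGF-beta to the matrix, moved in opposite directions. LTBP1 was at 153.5, 133.8 and 183.0 CPM in NTC and 262.1, 236.7 and 287.2 CPM in Set7KD. The lowest knockdown library was far above the highest control, with a log2 fold change of 0.74 ± 0.12 (standard error, edgeR adjusted p 0.0039). LTBP4 was at 112.3, 99.5 and 95.9 CPM in NTC and 81.9, 73.7 and 69.6 CPM in Set7KD. It was lower in every knockdown library, with a log2 fold change of -0.45 ± 0.07 (edgeR adjusted p 0.000226), and was the single lower gene whose call held in each of the 18 alternatives.

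LTBP3 was at 105.6, 108.7 and 96.5 CPM in NTC and 98.3, 82.6 and 90.0 CPM in Set7KD. The groups overlapped at NTC replicate 3 and Set7KD replicate 1. Its log2 fold change of -0.20 ± 0.07 (standard error, edgeR adjusted p 0.0329) was no longer called when NTC replicate 1 or 2 or Set7KD replicate 2 or 3 was left out, at up to 0.115, and without both replicate 2 libraries the log2 fold change was -0.10. LTBP2, which does not bind latent TGF-beta, was at 89.4, 72.3 and 93.1 CPM in NTC and 113.4, 84.1 and 116.4 CPM in Set7KD. Replicate 2 was the lowest of both groups, and the edgeR adjusted p of 0.21 became 0.000154 with the block and 0.0145 without Set7KD replicate 2. As a result of the opposite changes, LTBP1 exceeded LTBP4 by 1.37, 1.35 and 1.91 times in NTC and by 3.20, 3.21 and 4.12 times in Set7KD, in CPM within a library. The ratio of LTBP1 to LTBP3 was 1.53 ± 0.338 in NTC and 2.91 ± 0.265 in Set7KD (SD, n = 3).

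Among secreted antagonists of BMP and activin, GREM1 and FST rose. GREM1, which binds and blocks BMPs, was at 246.6, 208.2 and 298.2 CPM in NTC and 456.7, 387.4 and 522.1 CPM in Set7KD. The groups were well separated, although each varied widely with the replicate number. The log2 fold change was 0.86 ± 0.18 (standard error, edgeR adjusted p 0.0194), and the call was lost without NTC replicate 1 or Set7KD replicate 1, at up to 0.0602. FST, or follistatin, which neutralises activin, was at 3.16, 5.24 and 3.86 CPM in NTC and 6.17, 6.30 and 5.82 CPM in Set7KD. The groups did not overlap, and the log2 fold change was 0.58 ± 0.17 (edgeR adjusted p 0.014, or 0.0851 without NTC replicate 1). FST and the activin gene INHBA thus both rose. FSTL3, a related activin antagonist, was at 43.6 to 53.1 CPM in NTC and 42.2 to 55.1 CPM in Set7KD. FSTL1, a secreted glycoprotein and the most abundant of the 42 genes per length, was at 1589, 1392 and 1794 CPM in NTC and 1724, 1709 and 1696 CPM in Set7KD, and without NTC replicate 3 its edgeR adjusted p was 0.0349.

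The ID genes encode inhibitors of basic helix-loop-helix transcription factors. None of the 3 passed in the edgeR fit without the block, where 36.2% of all genes were called, and 2 were called lower with it. ID1 was at 164.4, 189.1 and 76.0 CPM in NTC and 84.6, 84.1 and 48.9 CPM in Set7KD. NTC replicate 3 was lower than Set7KD replicates 1 and 2, so the groups overlapped, but within each replicate number the knockdown library was the lower one. The log2 fold change was -0.98 ± 0.46 (standard error) with an edgeR adjusted p of 0.18, and the replicate block gave -0.94 and an adjusted p of 0.000124. Without the block ID1 was called lower by limma-voom, at an adjusted p of 0.0309, and by edgeR without both replicate 3 libraries, at 3.53e-07, but not without NTC replicate 3 alone, at 0.0541. Within numbers 1, 2 and 3 the log2 differences, with 0.5 CPM added to each value, were -0.95, -1.17 and -0.63.

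ID2 was at 21.2, 25.5 and 11.3 CPM in NTC and 13.4, 15.5 and 10.4 CPM in Set7KD. As for ID1, NTC replicate 3 was below Set7KD replicates 1 and 2, and the differences within numbers were -0.64, -0.70 and -0.11 on the log2 scale. The edgeR adjusted p was 0.306, 0.00117 with the block and 0.000638 without NTC replicate 3. ID3 was at 225.4, 228.5 and 128.7 CPM in NTC and 203.8, 181.5 and 167.3 CPM in Set7KD. Its differences within numbers were -0.15, -0.33 and 0.38, so that replicate 3 went the other way, and neither edgeR fit called it (adjusted p 0.859 and 0.891). Without NTC replicate 3 its log2 fold change was -0.30 with an adjusted p of 0.00509. NTC replicate 3 held 43, 48.4 and 56.7% of the mean of the other control libraries for ID1, ID2 and ID3. The early-response gene JUNB was also low in that library, at 73.6 CPM beside 144.9 and 181.2 CPM. So were SNAI1, at 10.3 beside 23.5 and 23.8 CPM, and HES1, at 136.6 beside 311.1 and 310.7 CPM. In Set7KD too, replicate 3 was the lowest library for JUNB, SNAI1 and HES1, at 34.6, 6.86 and 59.5 CPM. The same held for ID1, ID2 and ID3. JUNB, SNAI1 and HES1 were not called by edgeR (adjusted p 0.0689, 0.154 and 0.332) but were lower with the block (6.69e-06, 5.27e-06 and 9.95e-05). The part of NTC replicate 3 in the ID results was not tested beyond leaving it out.

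**Figure D4:**
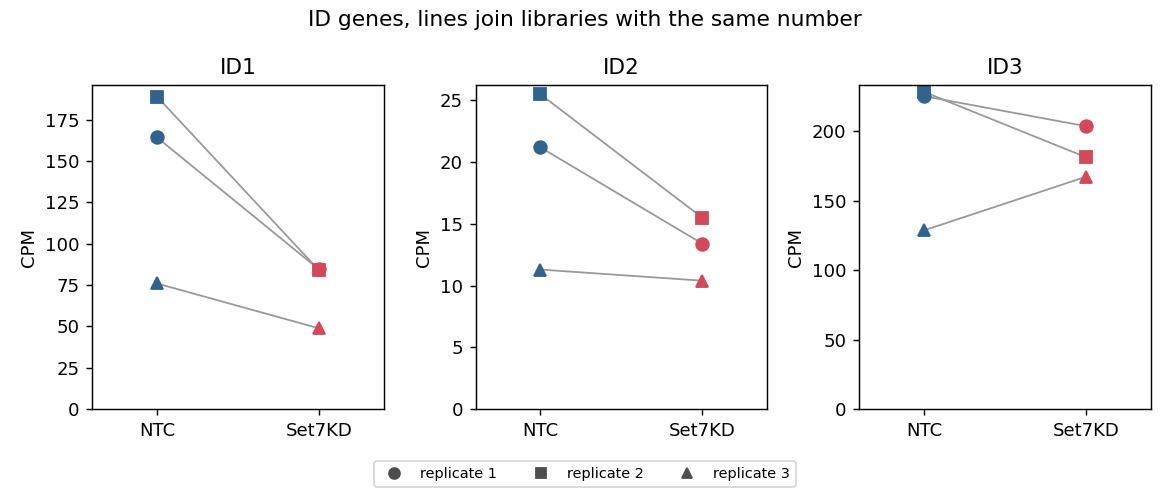
CPM of ID1, ID2 and ID3 in each library, with grey lines that join the NTC and Set7KD libraries of the same replicate number. NTC replicate 3 is the lowest control for each gene, at 76.0, 11.3 and 128.7 CPM. Set7KD replicate 3 is the lowest knockdown library for each, at 48.9, 10.4 and 167.3 CPM. The lines fall for every number in ID1 and ID2 but not for number 3 in ID3.

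Other genes of the pathway were taken from a list of 105, of which 68 were tested. By edgeR 17 were higher and 14 lower (45.6%, beside 36.2% of all genes), with a median log2 fold change of -0.03. Without NTC replicate 1 the lower genes numbered 9, and without both replicate 1 libraries 9 were higher and 7 lower. CAV1, the caveolin that takes part in receptor internalisation, rose with a log2 fold change of 0.79, and USP15, a deubiquitinase that acts on TGF-beta receptors and SMADs, with 0.47. FBN2, a fibrillin of the microfibrils to which latent TGF-beta complexes bind, fell with -0.64, and NEDD4L, a ubiquitin ligase for activated SMADs, with -0.59. FBN1, the other fibrillin gene of the list, rose with a log2 fold change of 0.83 (edgeR adjusted p 9.69e-05). GDF15, a distant member of the ligand family, fell from 102.9, 105.3 and 79.6 CPM to 45.5, 48.1 and 41.8 CPM. THBS1, which can activate latent TGF-beta, was at 2401, 2489 and 1831 CPM in NTC and 5009, 4005 and 5283 CPM in Set7KD. It rose with a log2 fold change of 1.09 (edgeR adjusted p 0.00249), but with the block the adjusted p was 0.0559.

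Genes known to respond to TGF-beta, apart from the 42, numbered 25 tested, of which 16 were higher and 1 lower by edgeR (17.6% and 18.6% of all genes), with a median log2 fold change of 0.66. With the block 14 were higher and 6 lower (20.7% and 22.1% of all genes), without NTC replicate 3 the counts were 17 and 6, and without Set7KD replicate 3 they were 14 and 2. The lists share genes, since THBS1 and PMEPA1, both called higher by edgeR, are counted here and among the other pathway genes. BMPER is likewise in the list of other pathway genes and in the BMP9 list below. COL3A1, COL1A2, TPM1 and VCAN rose, with log2 fold changes of 2.73, 2.30, 1.06 and 0.83. TGFBI went down, with a log2 fold change of -0.56 and an edgeR adjusted p of 3.7e-05. CTGF was at 2825, 3071 and 2052 CPM in NTC and 2153, 2288 and 1641 CPM in Set7KD, with an edgeR adjusted p of 0.234 and 4.53e-06 with the block.

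Several of these response genes are also cell type markers. Of 10 fibroblast markers 7 had a row, with summed levels of 1506 to 2070 CPM in NTC and 3224 to 4183 CPM in Set7KD, and DCN, FAP and TCF21 were not analysed here. By edgeR 5 of the 7 were higher, where 17.6% of all genes were. THY1 and LUM were not called, with log2 fold changes of 0.03 and 0.35. The sum rests mostly on COL1A1 (mean 1555 and 2861 CPM) and COL1A2 (149.3 and 732.7 CPM). Of 12 markers of smooth muscle and pericytes 11 had a row, with sums of 682.7 to 761.8 CPM and 1056 to 1353 CPM. The difference rests mostly on TAGLN (mean 96.3 and 551.1 CPM). By edgeR 5 of the 11 were higher, where 17.6% of all genes were, and ACTA2, MYH11, RGS5, PDGFRB, CSPG4 and MCAM were not called. CSPG4, at an edgeR adjusted p of 0.0537, was higher with the block at 5.61e-05. The part of these marker differences in the values of the ligands, receptors and regulators was not tested.

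Genes that respond to BMP9 through ALK1 in endothelial cells, apart from the 42, gave 3 higher and 2 lower of 10 tested by edgeR (36.2% of all genes called), and 4 and 3 with the block (42.8%), with a median log2 fold change of 0.01. ATOH8, a transcription factor gene, was at 12.9, 13.6 and 10.5 CPM in NTC and 34.2, 23.0 and 38.9 CPM in Set7KD, a log2 fold change of 1.38. Replicate 2 was the lowest of the knockdown libraries, as it was for BMP6, SMAD6, INHBA, GREM1 and LTBP1 among others. For INHBA, GREM1 and LTBP1 replicate 2 was also the lowest control. For TGFBR2 and TGFBR3, which rose as well, it was the highest knockdown library. UNC5B rose with a log2 fold change of 0.86 and HEY2 with 1.59, the latter from under 1 CPM in every control library. CXCR4 fell with a log2 fold change of -2.54, from 0.994, 1.93 and 0.761 CPM to 0.182, 0.0618 and 0.367 CPM, which is few counts in each library. HEY1 was at 1.4 to 1.99 CPM in NTC and 1.10 to 2.12 CPM in Set7KD. Leaving out NTC replicate 1, NTC replicate 2, Set7KD replicate 1 or Set7KD replicate 3 left 1 lower gene of the 10. The response list also holds 7 of the 42 genes. In the fit with the block, SMAD6 and ENG of these were higher, ID1 and ID2 lower, and SMAD7, ID3 and BMPR2 not called.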

How the data were processed

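Poly-A RNA-seq was made from 6 HMEC-1 libraries, 3 Set7KD and 3 NTC. Per the submitters' processing notes, BWA, bedtools and the build hg19 were used. The authors deposited whole-number counts per gene without normalization; 55.6 to 56.1% of each library's counts lay in a row outside genes, which was left out. Every row had a sum of at least 60 counts.

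Counts were fitted with edgeR 4.0.16 under R 4.3.3 (TMM, filterByExpr, robust glmQLFit, glmQLFTest, group as the factor) and adjusted by Benjamini-Hochberg over 18482 genes, with calls under 0.05. The standard error is the absolute log2 fold change over the square root of F. The code was tested on simulated data. Between libraries of 1 group the chi-square per degree of freedom was 2.98 to 9.85, more than counting noise gives; no library was a copy of another, but repeat preparations of 1 culture cannot be told apart this way. Lengths, overlaps and 3′ UTRs came from GENCODE 29 on GRCh38 and promoters from RefSeq GRCh38.p14, read in Python 3.11.15 with pandas 2.3.3. The sources used here do not say whether counting used strand.

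Deviations from the group means over 11151 genes with at least 10 CPM correlated at 0.30, 0.42 and 0.34 between same-numbered libraries and at -0.36 to -0.04 otherwise. Since each same-numbered pair exceeded 0.1, the numbers were read as a pairing, which comes from the data and not from a label. Deviations were taken from group means, so the positive and negative correlations depend on each other. The main fit has group alone, and its counts, standard errors and p-values do not use the pairing. For the genes named, the replicate block is therefore given where it changes a call. All 42 genes could be named, and of each other list up to 4 called genes with the smallest p plus GDF15, THBS1, CTGF, TGFBI, HEY1, HEY2 and 1 gene that is not reported here; JUNB, SNAI1 and HES1 were named after their values were seen. The members, lists and tests were chosen with earlier results of these data known. Alternatives were other normalizations and filters, the block, DESeq2 1.42.0, limma-voom (limma 3.58.1), an adjusted p under 0.01, a minimum fold of 1.2 and libraries left out; leaving out both libraries of a number was added after the data were seen.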

Additional observations from a re-analysis of the deposited data

How the results depend on the processing

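Of the 19 calls, 8 held in each of 18 alternatives: INHBA, BMP6, TGFBR2, TGFBR3, SMAD6, BAMBI and LTBP1 higher and LTBP4 lower. Leaving out each single library left 12 of the 19 unchanged. Of the 23 genes not called, 11 were called in at least 1 alternative. No called gene changed direction in the alternatives run. Beside 12 higher genes, a test against a fold of 1.2 gave 7, and leaving out libraries gave 7 to 14, the lowest without both libraries of replicate 1. Beside 7 lower genes, the replicate block gave 12, DESeq2 gave 4, a fold of 1.2 gave 1 and an adjusted p under 0.01 gave 2. Leaving out libraries gave 1 to 8 lower genes, with 1 again without both libraries of replicate 1. The cause was not tested, except that a fold of 1.2 and a lower p threshold are stricter by construction. Shares of all genes called are given for the main fit and the block, and not for the other alternatives. The scaling alternatives moved the median log2 fold change of all genes by at most 0.006. SMAD5 lost its call in 13 of the 18 alternatives, among them relative log expression (adjusted p 0.0579), upper-quartile normalization (0.0546) and DESeq2 (0.121) with all 6 libraries kept, and SMAD2 in 10. Genes under about 5 CPM in NTC, such as ACVR2B, FST and SMAD6, rest on few counts per library.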
